A study of Zea mays with 13 samples.

Results

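The 150 maize genes described here carried more H3K4me3 reads 7 days after the end of a watering treatment (T7) than at its end (T0), both in drought-stressed and in well-watered plants. They were chosen by that property. Each count was divided by the total of its library, and the score of a gene was the lower log2 value of the 2 T7 libraries minus the higher of the 2 T0 libraries. Of 43943 features in the tables, 24188 gene models had at least 200 H3K4me3 counts over the 4 libraries and could be scored, and the 150 highest scores were taken.

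H3K4me3 and H3K9ac are histone modifications that accompany transcribed promoters. H3K4me3 forms a peak just after the transcription start and is written by methyltransferases of the trithorax type, whereas acetylation of the neighbouring lysine is added by acetyltransferases and removed quickly by deacetylases. H3K27me3 is laid down by Polycomb complexes over repressed genes, and in plants it commonly covers the whole gene body. Immature leaves hold dividing and expanding cells, in which promoters can gain or lose these marks as the tissue matures.

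The plants were of the maize inbred B73, grown in a greenhouse with normal watering to the V5-V6 leaf stage. For 10 days stressed plants then received 25% and well-watered plants 75% of the disposable water, both at a salt level of 0.1 dS/m. The tissue was immature wrapped leaf, and the groups were stressed plants at T7, well-watered plants at T7, stressed plants at T0 and well-watered plants at T0, the T7 groups after 7 days of recovery. Each of the 3 marks had 1 chromatin immunoprecipitation (ChIP-seq) library per group, 12 in all, and whole chromatin without immunoprecipitation had 1 library, from control plants at the end of the 10 days. No pair of groups therefore has a replicate check, and the labels do not say how many plants a library holds. The gene models are known here by ID alone, so that neither their functions nor markers of leaf tissue could be looked up, and no sequence was used.

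Depth differed between libraries. H3K4me3 libraries held 5980217 counts in stressed and 4059090 in well-watered plants at T7, against 2793985 and 6876219 at T0. Totals were 1152884 to 1856159 for H3K9ac and 1612935 to 1969485 for H3K27me3. The well-watered T0 library stood apart in the contrast of both active marks, measured as enrichment over whole chromatin at the 95th percentile of features divided by that at the 25th. That contrast was 40.1-fold against 22.4 to 23.0 in the other H3K4me3 libraries, and 6.74-fold against 4.50 to 4.82 for H3K9ac. Its part in the differences from that library was not tested, and values with the trend on enrichment removed are given for some of the results.

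In H3K4me3 the members were of moderate height and their differences in time were modest. Scores reached from 0.97, a 1.95-fold gap between the nearest T7 and T0 libraries, down to 0.44 or 1.36-fold, with a median of 0.50 or 1.41-fold. The median over all scored genes was -0.17. Both T7 libraries exceeded both T0 libraries at 5842 scored genes, which is 24.2%, and 6215 genes had the reverse order. The threshold cut through a continuous range. Zm00001d045650, the last gene taken, had 199 counts in stressed and 117 in well-watered plants at T7, against 59 and 146 at T0, and Zm00001d049790, the first left out, had 328 and 218 counts at T7 against 107 and 272 at T0. Both have a score of 0.44, as do Zm00001d026874 and Zm00001d026445 just inside and Zm00001d001983 and Zm00001d042641 just outside.

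Levels are given from here on as CPM, counts per 1000000 counts of the library after TMM scaling over the 4 libraries of a mark. The median member had 25.5 H3K4me3 CPM in stressed and 26.7 in well-watered plants at T7, against 17.6 and 17.3 at T0. The log2 ratio of T7 over T0 had a median of 0.59 in stressed plants, with a range of 0.41 to 1.28, and of 0.57 in well-watered plants, with a range of 0.40 to 1.71. Stressed over well-watered, the median log2 ratio was -0.03 at T7, with a range of -0.68 to 0.42, and -0.04 at T0, with a range of -0.87 to 0.91. Since the time differences chose the genes, they are a description only. A leaf library mixes cell types, so that a different share of cells carrying a mark and a different amount per cell cannot be told apart.

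A rule of size shows what single genes could carry at this depth. It required a scaled ratio of at least 1.5-fold and an exact conditional binomial interval of the ratio, at a level of 0.001, that left out 1. At T7, 31 of the 150 genes met it upward in stressed plants, where 0.522% of all features tested did, and 45 met it in well-watered plants, where 1.3% did. An additive fit of watering and time over the 4 libraries (edgeR's quasi-likelihood test) called 75 of the 150 higher at T7 at an adjusted p of 0.05, beside 0.869% of all features. DESeq2 called 0 of them, with 38 at an unadjusted p under 0.05, which is 25.3% beside 1.13% of all features. All these counts follow from the choice of the members and are read no further. The 95% interval of a gene, which covers counting error only, had a median width of 0.98 log2 units in stressed and 0.80 in well-watered plants.

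Zm00001d008200 had the highest score. It had 24.5 and 27.6 H3K4me3 CPM at T7 in stressed and well-watered plants, against 12.7 and 12.5 at T0, from 148, 111, 35 and 83 counts. Its 95% intervals of the log2 ratio ran from 0.41 to 1.53 in stressed and from 0.71 to 1.56 in well-watered plants. Its T7 and T0 libraries did not overlap, which the choice of genes makes true of every member, and the thinnest of them held 35 counts. Zm00001d012760, also among the 10 highest scores, had 32.7 and 30.0 CPM at T7 against 15.2 and 18.7 at T0. Zm00001d012770 had the highest H3K4me3 enrichment of the members, with 85.1 and 79.2 CPM at T7 against 55.7 and 58.4 at T0. The remaining genes among the 10 highest scores, Zm00001d037974, Zm00001d048783, Zm00001d038985, Zm00001d017087, Zm00001d003866, Zm00001d035317, Zm00001d035759 and Zm00001d043998, had scores of 0.76 down to 0.68.

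**Figure D1:**
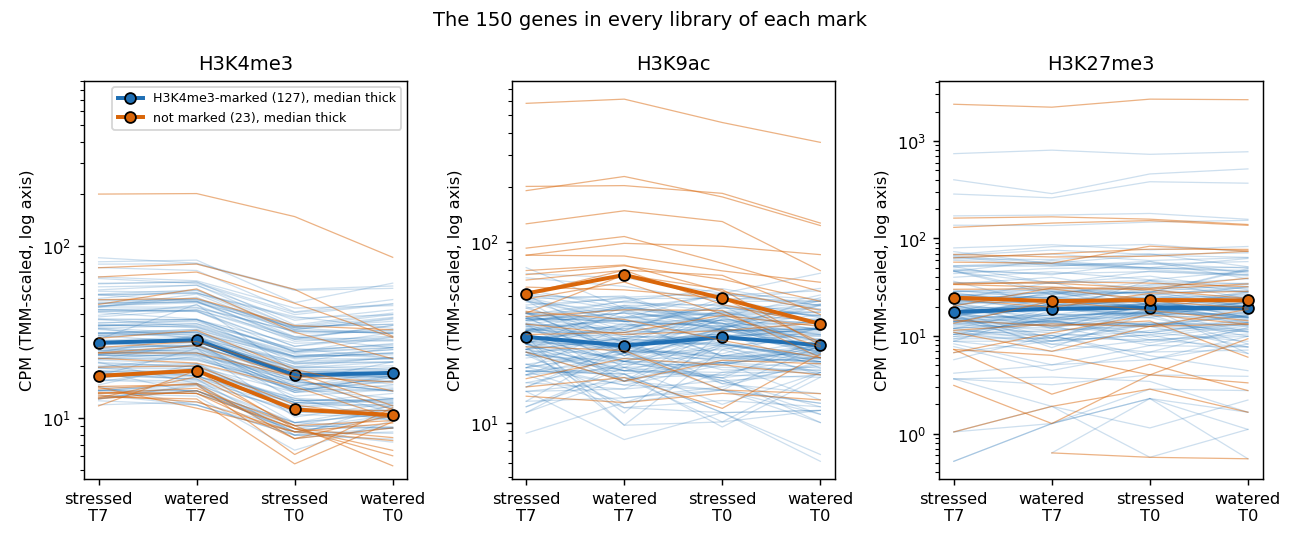
TMM-scaled CPM (log axis) of the 150 genes in the 4 libraries of each mark, stressed and well-watered at T7 left of stressed and well-watered at T0; thin lines are genes, thick lines with points are medians, and libraries in which a gene had 0 counts are not drawn. H3K4me3 drops to the T0 libraries at every gene because the genes were chosen so, while the medians of H3K9ac and H3K27me3 stay nearly level for the 127 H3K4me3-marked genes.

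The members carried less H3K4me3 over whole chromatin than scored genes at large. Their median log2 enrichment of H3K4me3 was -0.28, against 0.66 for all scored genes. They also had fewer H3K4me3 counts over the 4 libraries, with a median of 409.5 against 702. These libraries chose the members, so that their H3K4me3 enrichment and marks are a description only. A mark was called at a gene whose enrichment was 2-fold or more over the 25th percentile in every library of that mark. H3K4me3 marked 127 of the 150 members or 84.7% (95% Clopper-Pearson interval 77.9 to 90), against 99.1% of the scored genes. H3K9ac marked 55 members or 36.7% (29.0 to 44.9), against 55.7%, and H3K27me3 marked 4 of 143 with enough whole chromatin or 2.8% (0.767 to 7.01), against 11.1%. Genes are not independent replicates, and no test was made of these shares. A 4-fold line instead left H3K4me3 marks at 56.0% of the members and H3K9ac marks at 0%, and whole-gene in place of 1 kb background counts left H3K4me3 marks at 53.1%.

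Taken over the 143 genes measured for all marks, 66 carried H3K4me3 alone, which is 46.2% against 34.1% of scored genes. H3K4me3 with H3K9ac was found at 52 or 36.4%, against 54.1%. H3K4me3 with H3K27me3 was found at 3, Zm00001d014614, Zm00001d014615 and Zm00001d013259. No mark was called at 20 or 14.0%, against 0.761% of scored genes. A set chosen in the mirrored way, the 150 genes with the lowest T7 relative to T0, had a median H3K4me3 enrichment of 0.70, H3K9ac marks at 42.3% and H3K27me3 marks at 28.8%. Its genes had a median of 51.5 whole-chromatin counts over the whole gene, against 261 for the members, and 57.5 H3K27me3 counts against 135. The shares of marks thus rest on unlike counts, and their difference was not tested.

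Whole-chromatin counts of the members fell into 2 ranges. The 127 H3K4me3-marked genes had 45 to 104 counts in the 1 kb window at the transcription start, near the median of 67 over scored genes. Of the 23 unmarked genes, 7 lay in the same range with 68 to 99 counts, and 16 had 224 to 1986. No member lay between 104 and 224. The mark divides H3K4me3 by this same window count, so that mark and count are not independent. Windows over 200 counts were rare, 202 of the scored genes or 0.835%, and 7.92% of these were members against 0.62% of all scored genes. The line at 200 was drawn after the values were seen. These 202 genes had a median score of 0.04, 56.9% of them scored above 0, and 8.42% were H3K4me3-marked. Why these windows hold so many whole-chromatin reads was not tested.

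The 16 genes are Zm00001d005512, Zm00001d019605, Zm00001d026874, Zm00001d038985, Zm00001d004057, Zm00001d026873, Zm00001d037514, Zm00001d035837, Zm00001d036075, Zm00001d011381, Zm00001d015395, Zm00001d044070, Zm00001d048636, Zm00001d042521, Zm00001d026421 and Zm00001d005994. Zm00001d005512 had the highest whole-chromatin count of any feature in the 1 kb window, 1986. Its H3K4me3 level was 199 and 200 CPM at T7 in stressed and well-watered plants, against 147 and 85.6 at T0. Over all 23 unmarked members the median log2 ratio of H3K4me3 was 0.55 in stressed and 1.01 in well-watered plants, or 0.57 in well-watered plants with the trend removed. At T0 the 16 genes had a median H3K4me3 log2 ratio of stressed over well-watered of 0.53, all 16 above 0, and of -0.09 with the trend removed. The 202 scored genes over 200 counts had 0.90, with 198 above 0, and 0.31 with the trend removed. Both T0 libraries entered the choice of the 16, so that this difference is a description only. Zm00001d019605 had the highest whole-gene count of any feature, 18942. At the other end Zm00001d005994 had 224 counts in the window but 3 over the whole gene, Zm00001d020872 had 7 over the whole gene and Zm00001d040212 had 11.

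**Figure D2:**
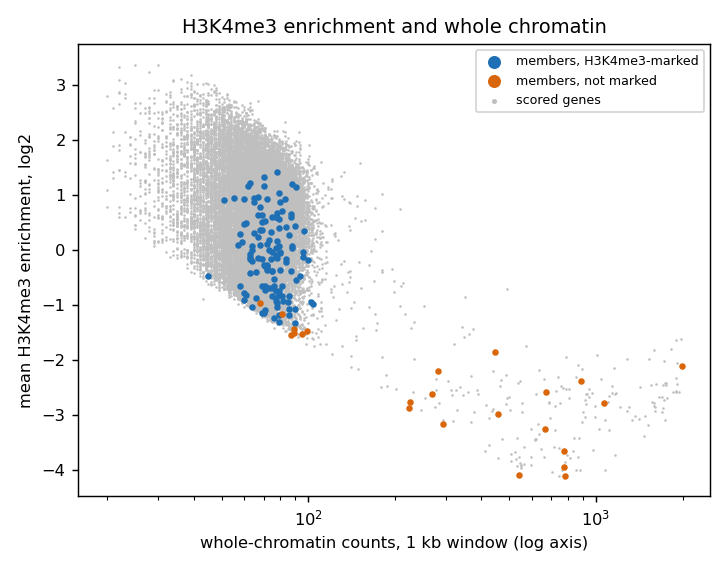
Mean log2 H3K4me3 enrichment over the 4 libraries against whole-chromatin counts in the 1 kb window (log axis), for scored genes with at least 20 such counts (grey) and the members (coloured). The 127 marked members lie within 45 to 104 counts, and 16 of the 23 unmarked members lie at 224 to 1986 counts with little enrichment. The count on the horizontal axis is also the divisor of the enrichment.

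The question put to H3K9ac was whether acetylation, which had no part in choosing the genes, was also higher at T7. Over the 150 members the medians moved little. The median member had 32.0 H3K9ac CPM in stressed and 28.3 in well-watered plants at T7, against 32.3 and 27.4 at T0. The median log2 ratio of T7 over T0 was 0.07 in stressed plants, where 90 members lay above 0, and 0.08 in well-watered plants, where 88 did. The medians over all features tested were 0.01 in both waterings, and those over the scored genes 0.03 in stressed and -0.14 in well-watered plants. With the trend on enrichment removed, the well-watered medians were 0.13 for the members and -0.02 for the scored genes. The median 95% interval of a single gene was 1.32 log2 units wide in stressed and 1.31 in well-watered plants, which does not measure the error of a median. Summed over the 150 members, the log2 ratio was 0.10 (95% interval for counting error 0.06 to 0.15) in stressed plants. In well-watered plants it was 0.23 (0.18 to 0.27), from -0.01 at the marked and 0.73 at the unmarked members. The well-watered median also rested on the choice of members, and was -0.064 for the 150 genes chosen without the well-watered T0 library and 0.85 for those chosen without the stressed T0 library.

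By the rule of size, H3K9ac was higher at T7 at 1 member in stressed plants, against a background of 0.131%, and lower at 0, against 0.177%. In well-watered plants it was higher at 11 members or 7.33%, against a background of 0.722%, and lower at 0, against 0.714%. That share was 0.667% in the genes chosen without the well-watered T0 library and 71.3% in those chosen without the stressed T0 library. All 11 belonged to the 16 genes of high whole chromatin, and none of the 127 H3K4me3-marked genes was among them. In the whole set of 202 such scored genes, 150 met the rule upward in well-watered plants. The 16 members among them had a median log2 ratio of 0.82, against 0.85 over the 202. With the trend on enrichment removed, 6 members met the rule, 1 of them marked, against 0.245% of all features, and the median of the 16 was 0.46, beside 0.45 over the 202.

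Zm00001d038985 had the largest H3K9ac ratio of the members in well-watered plants. It had 40.4 and 65.6 CPM at T7 in stressed and well-watered plants, against 54.5 and 26.8 at T0. Its log2 ratio was 1.28 (95% interval 0.76 to 1.84) in well-watered and -0.42 (-0.98 to 0.10) in stressed plants. Zm00001d036075 had 48.3 and 59.9 CPM at T7 against 39.9 and 26.2 at T0, and Zm00001d037514 had 126 and 148 at T7 against 129 and 69.2 at T0. In each of these genes the well-watered T0 library was the low one. Zm00001d005512 reached 580 and 612 CPM at T7 against 455 and 353 at T0, and both T7 libraries lay above both T0 libraries. The other 7 were Zm00001d042521, Zm00001d019605, Zm00001d015395, Zm00001d011381, Zm00001d004057, Zm00001d044070 and Zm00001d026874, with log2 ratios of 0.69 to 1.01 in well-watered plants.

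Among the 127 marked members H3K9ac was nearly level. Summed per gene they had 30.9 CPM in stressed and 28.5 in well-watered plants at T7, against 29.5 and 28.6 at T0. The log2 ratio of these sums was 0.07 in stressed plants (95% interval for counting error 0.01 to 0.13) and -0.01 in well-watered plants (-0.06 to 0.05). The same genes summed to 31.2 and 31.8 H3K4me3 CPM per gene at T7 against 20.4 and 21.5 at T0, log2 ratios of 0.61 and 0.56. The H3K4me3 ratios are high by choice, so that the gap between the marks is no finding. Median log2 ratios of H3K9ac were 0.05 and 0.04 at the marked members. Scored genes with the H3K4me3 mark had 0.02 in stressed and -0.14 in well-watered plants, where the trend-removed medians were 0.03 and 0.08 for the marked members and -0.00 and -0.02 for the scored ones.

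The 23 unmarked members had higher H3K9ac at T7 in well-watered plants. Summed per gene they had 86.8 H3K9ac CPM in stressed and 95.01 in well-watered plants at T7, against 77.4 and 57.5 at T0, log2 ratios of 0.17 (0.09 to 0.25) and 0.73 (0.65 to 0.81). Zm00001d005512 gave 27.3% of these counts, and without it the ratios were 0.10 and 0.70. Their median log2 ratio in well-watered plants was 0.79, or 0.35 with the trend removed. All scored genes not called H3K4me3-marked had 0.80, or 0.43 with the trend removed, so the members did not stand out from them. The rule of size was met upward by 147 of the 249 such genes measured, beside 11 of the 23 members.

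**Figure D3:**
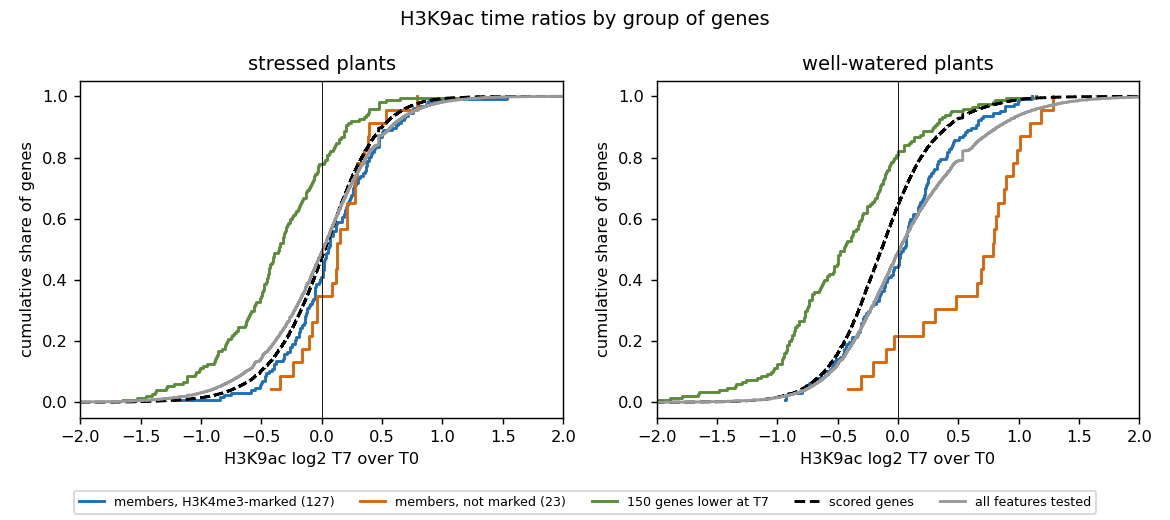
Cumulative share of genes by log2 ratio of H3K9ac at T7 over T0 in stressed (left) and well-watered plants (right), for the marked and unmarked members, the 150 genes lower in H3K4me3 at T7, the scored genes and all features tested. In well-watered plants the unmarked members are displaced to a median of 0.79 while the marked ones have 0.04, and the genes lower in H3K4me3 have -0.45. Unmarked scored genes, not drawn on their own, have a median of 0.80 there.

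The order of the libraries was also counted. H3K9ac was higher in both T7 libraries than in both T0 libraries at 42 of the 150 members or 28.0%, against 17.4% of all features and 12.2% of scored genes. The opposite order held at 16 members or 10.7%, against 15.8% and 21.0%. Of the 42 genes, 30 were H3K4me3-marked, which is 23.6% of the marked members against 11.7% of marked scored genes. The other 12 were 52.2% of the unmarked members, against 59.8% of the scored genes not called H3K4me3-marked. In the mirrored set, lower in H3K4me3 at T7, 4 had H3K9ac above in both T7 libraries and 75 had it below. The median log2 ratios of that set were -0.35 in stressed and -0.45 in well-watered plants, or -0.34 in the latter with the trend removed. Neither set was tested against the other, since genes are not replicates of a condition. Across the members, H3K9ac and H3K4me3 ratios had a Spearman correlation of -0.04 in stressed and 0.39 in well-watered plants (n = 150 genes), and 0.24 in well-watered plants over the 127 marked genes. These points share their libraries, and the H3K4me3 range was cut off by the choice.

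Zm00001d038199 had the highest H3K9ac ratio by the lower of both waterings, with 29.8 and 21.9 CPM at T7 in stressed and well-watered plants, against 17.1 and 11.2 at T0, and both T7 libraries lay above both T0 libraries. Its log2 ratios were 0.80 (0.03 to 1.59) and 0.96 (0.08 to 1.88), on 20 to 34 counts. Zm00001d013367, next to Zm00001d012770 in H3K4me3 enrichment, had 50.9 and 42.1 CPM at T7 against 32.3 and 26.8 at T0, a log2 ratio of 0.65 in each watering. Zm00001d053686, Zm00001d023854, Zm00001d014614 and Zm00001d014615 had ratios between 0.66 and 0.85 in both waterings. Zm00001d008200, at the top of the H3K4me3 ranking, had 20.2 and 34.0 H3K9ac CPM at T7 against 36.7 and 24.0 at T0, so that its T7 and T0 libraries overlapped. The members with the lowest ratios in both waterings were Zm00001d028810, Zm00001d006126, Zm00001d020975, Zm00001d022109 and Zm00001d003081. Zm00001d028810 had 20.2 and 24.3 CPM at T7 against 25.3 and 33.5 at T0, log2 ratios of -0.31 and -0.45, each with an interval that held 0.

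The additive fit takes as its error how far the watering differences at T7 and T0 depart from each other. It called 0 members for time in H3K9ac at an adjusted p of 0.05, and 0.0% of all features. At an unadjusted p under 0.05 edgeR had 14 members, 13 of them higher and 1 lower at T7, which is 9.33% of the members beside 4.54% of all features. The lowest adjusted p of a member was 0.928, at Zm00001d036075 (log2 change 0.73 ± 0.26 SE) and Zm00001d038199 (0.87 ± 0.33 SE). DESeq2 called 0 members, with 1 at an unadjusted p under 0.05, which is 0.667% beside 0.0823% of all features. For watering edgeR called 0 members, against 0.00242% of all features, with 7 at an unadjusted p under 0.05, which is 4.67% beside 4.01% of all features, and DESeq2 called 0 with 0 at that level.

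Few members differed between waterings in H3K9ac by the rule of size. Stressed over well-watered, H3K9ac had a median log2 ratio of 0.05 at T7 and 0.11 at T0, where the scored genes had 0.02 and -0.13. With the trend on enrichment removed, the T0 medians were 0.14 for the members and -0.02 for the scored genes. The rule of size was met at T7 by 1 member, against a background of 0.194%, and at T0 by 2, against 1.27%. The gene at T7 was Zm00001d037886, singled out after its values were seen, with 29.8 CPM in stressed and 9.71 in well-watered plants at T7, against 10.1 and 19.0 at T0. It was also the 1 member whose H3K9ac was higher at T7 in stressed plants, with a log2 ratio of 1.54 (0.66 to 2.51), beside -0.93 (-2.05 to 0.02) in well-watered plants. The genes at T0 were Zm00001d038985 and Zm00001d037514, both with a low well-watered T0 library.

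H3K27me3, the repressive mark, had no part in the choice either. It could be compared at 137 members, since 13 had under 40 counts over the 4 libraries. The median member had 17.9 CPM in stressed and 19.96 in well-watered plants at T7, against 19.99 and 19.6 at T0. The median log2 ratio of T7 over T0 was -0.05 in stressed and -0.02 in well-watered plants, beside -0.00 and 0.01 over all features. By the rule of size 0 members were higher in stressed plants, against 0.121% of all features, and 0 lower, against 0.0768%. In well-watered plants 0 were higher, against 0.0975%, and 1 was lower, against 0.665%. Both T7 libraries lay above both T0 libraries at 18 members or 13.1%, against 16.5% of all features, and below them at 29 or 21.2%, against 15.9%.

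The 1 gene lower in well-watered plants was Zm00001d013259, which carried both the H3K4me3 and the H3K27me3 mark. It no longer met the rule of size with the trend on enrichment removed, where 47 of 33710 features were lower. It had 400 H3K27me3 CPM in stressed and 288 in well-watered plants at T7, against 459 and 516 at T0, so that both T7 libraries lay below both T0 libraries. Its log2 ratio was -0.84 (-1.01 to -0.68) in well-watered and -0.20 (-0.34 to -0.05) in stressed plants. Its H3K4me3 was 17.6 and 25.3 CPM at T7 against 10.1 and 12.2 at T0. That order holds at every member by choice, so that the contrast between the marks is no finding. In edgeR's additive fit its log2 change over time was -0.51 ± 0.12 (SE), with an adjusted p of 0.35. Without the filter on low counts the fit called it, with an adjusted p of 0.0165. The share of all features called without that filter is not given here. Zm00001d034045, which was not H3K27me3-marked by the definition used, had 285 and 261 H3K27me3 CPM at T7 against 382 and 369 at T0, again below in both waterings. Its log2 ratios were -0.42 (-0.58 to -0.25) and -0.50 (-0.68 to -0.32), just short of the 1.5-fold asked for, and its adjusted p was 0.917.

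The other members named for the lowest H3K27me3 ratios in both waterings had few counts. Zm00001d017178 had 9.36 and 9.50 CPM at T7 against 16.6 and 17.1 at T0, with intervals that held 0. Zm00001d039727, Zm00001d040317 and Zm00001d000842 had log2 ratios between -0.96 and -0.57. The highest were those of Zm00001d048158, Zm00001d026300, Zm00001d041088, Zm00001d037974 and Zm00001d018364, between 0.30 and 0.54 in both waterings, of which Zm00001d026300 had 30.1 and 30.4 CPM at T7 against 23.4 and 23.2 at T0. Zm00001d019605, with the most H3K27me3 counts of the members, was also lower in both waterings. Its H3K27me3 was 2376 and 2217 CPM at T7 against 2680.2 and 2646 at T0, yet no mark was called over its high whole-gene background. Zm00001d000524 had the next highest whole-gene count among the members and 740 and 804 CPM at T7 against 729 and 774 at T0.

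For H3K27me3 the additive fit called 0 members for time, and 0.0% of all features. At an unadjusted p under 0.05 edgeR had 10 members, 1 of them higher and 9 lower at T7, which is 7.3% of the members beside 3.92% of all features. DESeq2 called 0, with 1 at that level, which is 0.73% beside 0.0177% of all features. For watering edgeR also called 0 members, against 0.0% of all features, with 2 at an unadjusted p under 0.05, which is 1.46% beside 3.54% of all features, and DESeq2 called 0 with 0 at that level. The rule of size was met between waterings by 0 members at T7, against 0.555% of all features, and by 0 at T0, against 0.213%, with median log2 ratios of -0.01 and 0.05.

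**Figure D4:**
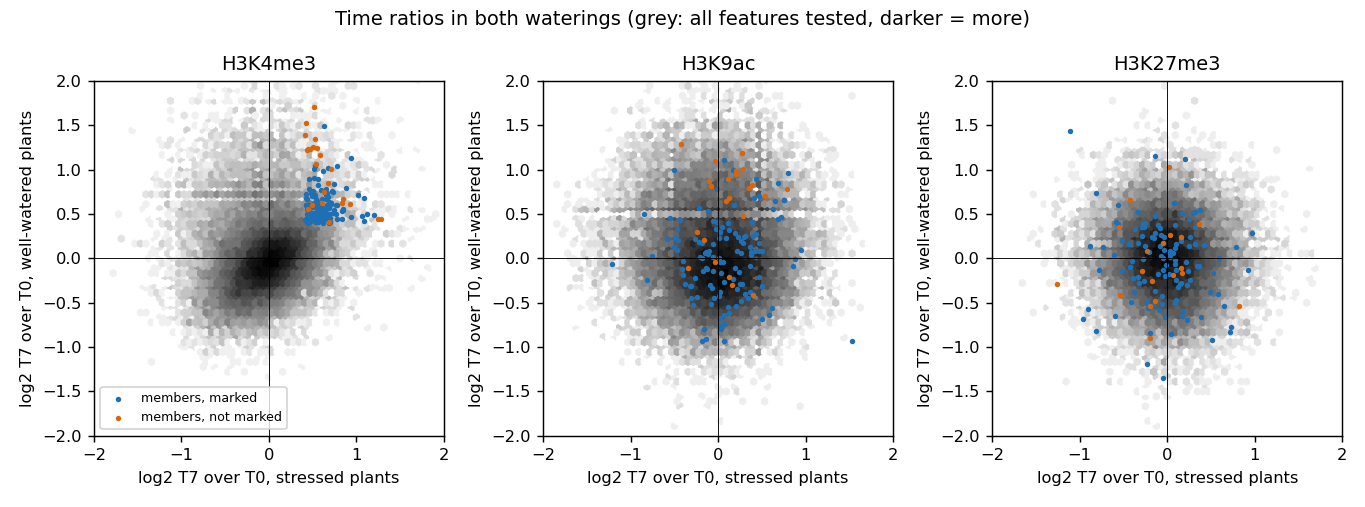
Log2 ratio of T7 over T0 in well-watered plants (vertical) against stressed plants (horizontal) for each mark, with all features tested in grey (darker where more lie) and the members in colour. The members fill the upper right corner in H3K4me3 by choice, the unmarked ones reach up to 1.71 in well-watered plants, and in H3K27me3 the members are scattered around 0.

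Some members may share reads. Of 7 pairs of members whose counts of the active marks agreed within 15% or 2 counts, 2 pairs had consecutive IDs. Zm00001d014614 and Zm00001d014615 had equal counts in 7 of 8 libraries of the active marks. Zm00001d000523 and Zm00001d000524 agreed within that tolerance, with equal counts in 1 library, and the remaining pairs had equal counts in 1 library at most. Genes that share reads would not be independent, and how the counting divided reads between genes was not stated.

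The choice rests on both T0 libraries. Without the well-watered T0 library in the score, 41 of the 150 genes were chosen again, and without the stressed T0 library 19. TMM-scaled counts in the score kept 136 genes, and a minimum of 400 H3K4me3 counts kept 79.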

How the data were processed

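Read counts per gene for 3 histone marks and whole chromatin were analysed in immature maize leaves. The authors deposited raw counts, not normalized, per the labels, 1 table per mark with 4 libraries and 1 table of whole chromatin with counts in a 1 kb window and over the whole gene. CASAVA 1.8, Bowtie2 and the genome B73 RefGen_v4 are named in the submitters' processing notes; the program and window used for the counts of each mark are not given in sources used here. The 43943 features comprised 43789 gene models and 154 microRNA genes, and 0 gene model IDs were found in the reference table, which belongs to another assembly.

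The members and all lists were chosen with earlier results of these data known. Ratios used TMM scaling (edgeR 4.0.16), a prior of 0.5 counts and features with at least 40 counts over the 4 libraries of a mark. With 1 library per group, single comparisons used the rule of size (1.5-fold and an exact interval at a level of 0.001), and 95% intervals cover counting error only. The additive fit (edgeR's quasi-likelihood test, R 4.3.3, limma 3.58.1, Benjamini-Hochberg over all features, threshold 0.05) leaves 1 residual degree of freedom per feature; DESeq2 1.42.0 was the alternative. Adjusted p-values are edgeR's. The rule of size and edgeR's additive fit for H3K9ac and H3K27me3 were tested on simulated data. Enrichment divided scaled counts by whole-chromatin counts, of which at least 20 were required, on a log2 scale, in the 1 kb window for the active marks and over the whole gene for H3K27me3. The removed trend is the running median of the ratio over 50 bins of enrichment. Genes were named by rule: the 10 highest scores, the 5 highest and 5 lowest in both waterings for H3K9ac and for H3K27me3, the 3 highest and 3 lowest in H3K4me3 enrichment and in whole-gene counts, the 3 on either side of the threshold, and any called by 2 comparisons or a fit. Genes of the 16 and 11 discussed together were named after their values were seen. Alternatives were total-count scaling, other filters, member numbers, scores and backgrounds.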

Additional observations from a re-analysis of the deposited data

Results flagged for a closer look

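At 3 members the H3K27me3 ratio of T7 over T0 went opposite ways in the waterings, each with a 95% interval for counting error that left out 0. Zm00001d014615 had log2 ratios of 0.73 in stressed and -0.78 in well-watered plants, from 90 counts in stressed and 45 in well-watered plants at T7, against 49 and 89 at T0. Zm00001d014614, which may share its reads, had 0.72 and -0.83. Zm00001d006126 had -1.12 in stressed and 1.44 in well-watered plants, from 17 and 29 counts at T7, against 34 and 12 at T0. With 1 library per group the difference between waterings was not tested, and none of the 6 ratios met the rule of size.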

How the results depend on the processing

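No paired analysis was possible because each mark had 1 library per group and the labels carry no replicate numbers. For the same reason no replicate could be left out. Of 151 alternative values for 23 results, 119 stayed within the tolerance set for them and 32 moved beyond it. Of 64 alternative medians, 4 had the opposite sign: H3K9ac in well-watered plants (-0.064) and H3K27me3 in well-watered plants (0.052) in genes scored without the well-watered T0 library, H3K27me3 in stressed plants with the 50 highest scores (0.037), and H3K27me3 in stressed over well-watered plants at T7 with the trend removed (0.015). Shares are percentages of members meeting the rule of size. With the 50 highest scores, H3K9ac had medians of 0.17 (stressed) and 0.23 (well-watered) and a stressed share of 0%, H3K9ac marks stood at 24.0%, and the H3K27me3 share in well-watered plants was 2.33%. With the 300 highest scores the stressed H3K9ac share was 0.333% and the well-watered H3K27me3 share 0.358%. A minimum of 400 H3K4me3 counts gave 0% for the last. Removing the trend on enrichment gave well-watered shares of 4.0% for H3K9ac and 0% for H3K27me3, and 2.0% for stressed over well-watered H3K9ac at T0, which was 2.67% on total counts.

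Further alternatives were added after the data were seen. Marked members alone had a well-watered H3K9ac share of 0%. Unmarked members alone had a share of 47.8% with a median of 0.79, a stressed share of 0%, and for H3K27me3 in well-watered plants a median of -0.15 and a share of 0%. Scores without the well-watered T0 library gave a well-watered H3K9ac median of -0.064 and share of 0.667%. Scores without the stressed T0 library gave 0.85 and 71.3%, a stressed H3K9ac share of 0%, H3K27me3 medians of -0.20 (stressed) and -0.16 (well-watered), and a well-watered H3K27me3 share of 3.26%. The small positive H3K9ac median in well-watered plants thus depended on which T0 libraries entered the score.

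Without a filter on low counts edgeR's additive fit for H3K27me3 called 1 member over time, Zm00001d013259 (log2 change -0.51 ± 0.10 SE, adjusted p = 0.0165). The share of all features it called is not given here. Marked shares depended on the definition. On whole-gene background H3K4me3 marked 53.1% and H3K9ac 28.7% of members. At 4-fold over the percentile H3K4me3 marked 56.0%, H3K9ac 0% and H3K27me3 0%. Depth limits single genes most in H3K27me3, where the median member had 34 counts in stressed and 31 in well-watered plants at T7 and 13 members were under the minimum.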
